A study of Mus musculus with 2 samples.

Results

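Amino acid transporters move amino acids, and some related small molecules, across the plasma membrane and the membranes of organelles. The set described here holds every gene whose symbol places it in 1 of 7 solute carrier families. These are Slc1a, Slc3a, Slc6a, Slc7a, Slc36a, Slc38a and Slc43a. Genes were taken by symbol with no filter on measured values, but the set was chosen with earlier results of these data known. Of 19938 genes with a probe set naming that gene alone, 64 matched. The name pattern also took in 2 genes that are no transporters, Slc7a6os and Slc6a19os. The Slc6a family includes carriers of neurotransmitters, taurine, betaine and creatine besides those of amino acids.

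Gene expression was measured on Affymetrix Mouse Gene 1.0 ST arrays in cells of healing mouse skin, 1 week after wounding. Cells labelled B-Gal positive were set against cells labelled B-Gal negative, both from scar tissue of mice given as TCF reporter mice, a genotype that the groups share. The labels name neither the reporter's promoter, nor the strain, age or number of the mice, nor the way the cells were parted, and the series text speaks of homogenised, microdissected tissue. The reporter gene lacZ was not analysed here, so the labels were not checked against it. Each group had 1 array, so no difference here has an error or a test, and the number of arrays limits the precision.

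Values are log2 expression values of probe sets as deposited, and a difference is always B-Gal positive minus B-Gal negative. Signal that could be background was bounded by a floor of 5.59, the 95th percentile of 1194 odorant and pheromone receptor genes. Any other gene with at least 1 array above it is called expressed. As a gauge of scatter near the background, the receptor genes' differences had an SD of 0.37 around a median of 0.28, and 2.68% of these genes passed 2-fold. The median of all probe sets was 6.16 in B-Gal positive cells and 6.18 in B-Gal negative cells.

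The arrays differed widely in markers of cell types. The marker lists were chosen with earlier results of these data known, so their counts describe the arrays and test nothing. All 14 macrophage markers passed 2-fold on the higher side, and in B-Gal positive cells their summed linear values came to 59752, against 5340 in B-Gal negative cells. Of the 14, Cd163 and Ms4a7 (2 genes) did not reach the floor in B-Gal negative cells. All 12 fibroblast markers passed 2-fold on the lower side, with linear sums of 15677 in B-Gal positive cells, against 91769 in B-Gal negative cells, and 0 of them lay under the floor on either array. Markers of other cells also passed 2-fold on the lower side: 6 of 8 for smooth muscle and pericytes, 7 of 8 for endothelium, 7 of 7 expressed for mast cells, 4 of 5 expressed for neutrophils and 3 of 6 expressed for keratinocytes. Of 6 expressed markers of T and NK cells, 3 were lower and 1 higher, and none of the expressed markers of adipocytes (3) or of melanocytes and Schwann cells (2) passed 2-fold. Of the 8 mast cell markers, Cpa3, Mcpt4, Cma1 and Ms4a2 lay under the floor in B-Gal positive cells. The part of these markers' cells in the differences below was not tested, and fewer cells of a type and less RNA per cell cannot be told apart in such samples.

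As background, amino acids have several known uses in a healing wound. Arginine feeds nitric oxide synthase or arginase in macrophages, glycine and proline make up much of the collagen that fibroblasts secrete, and cystine is the source of cysteine for glutathione. Transporters differ in what drives them: some use the sodium gradient, some the proton gradient, some exchange 1 amino acid for another, and some let amino acids pass down their gradient. Several Slc7 proteins are light chains that reach the membrane only when joined to a heavy chain of the Slc3 family.

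Of the 64 genes, 41 were expressed and 23 were not. Among the expressed genes, 11 (26.8%) had a level in B-Gal positive cells 2-fold or more above that in B-Gal negative cells, a share that was 9.92% over all 13784 expressed genes. Lower by 2-fold or more were 9 (22.0%), against 12.7% of all expressed genes. Together 20 of the 41 (48.8%) differed at least 2-fold in 1 direction or the other, against 22.6% of all expressed genes. A gene that passed the floor only through its higher array may differ for that reason, and 8 of the 41 had only 1 array above the floor. Among the 33 with both arrays above it, 17 (51.5%) differed at least 2-fold, against 20.8% of 12082 genes that met the same condition. The median difference of the 41 genes was 0.09, against 0.06 for all expressed genes, and its sign turned under loess scaling (-0.06) and quantile normalization (-0.01). The median absolute difference was 0.89, against 0.43 for all expressed genes. The families thus held genes far apart on both sides, around a centre close to that of all genes.

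**Figure D1:**
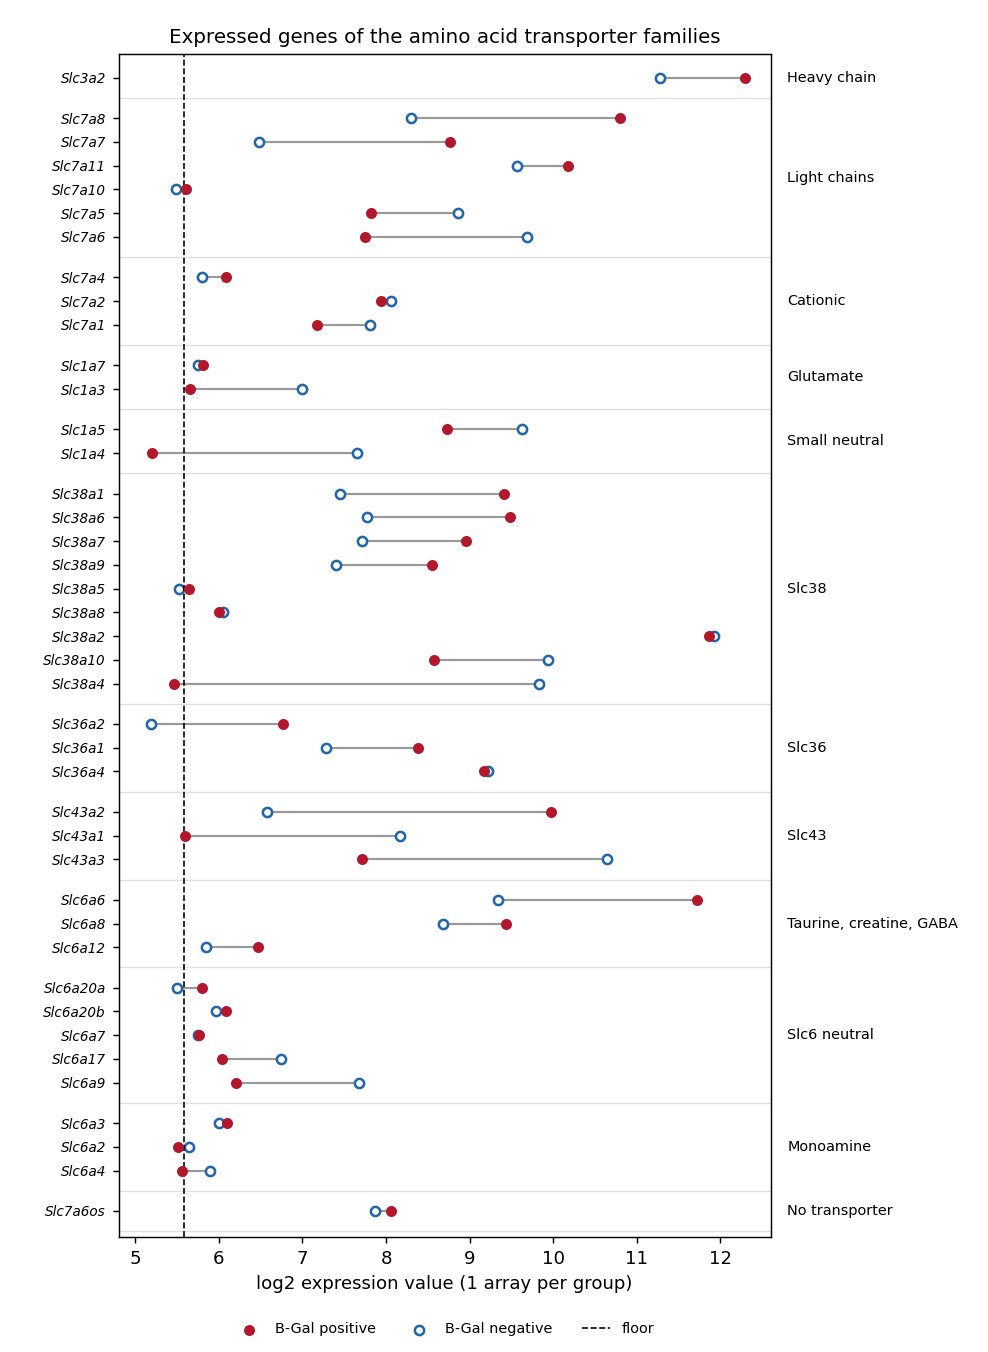
Log2 expression values (horizontal axis) of the 41 expressed genes of the 7 families, 1 array per group, with filled points for B-Gal positive and open points for B-Gal negative cells and the floor of 5.59 as a dashed line. Genes are grouped by the kind of transporter named on the right. In Slc43a2, Slc7a8, Slc6a6 and Slc7a7 the filled point lies farthest to the right of the open one, and in Slc38a4, Slc43a3, Slc43a1 and Slc1a4 farthest to its left.

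The heteromeric transporters differed by chain. Slc3a2, which encodes the heavy chain CD98, had a log2 value of 12.30 in B-Gal positive cells and 11.28 in B-Gal negative cells, a 2.03-fold higher level that lies just past the 2-fold threshold. Slc3a1, the heavy chain of cystine and dibasic amino acid uptake in kidney and gut, was not expressed. Of 10 light chains measured, 6 were expressed, and 2 of these differed less than 2-fold. By 2-fold or more 2 were higher (33.3%, against 9.92% of all expressed genes) and 2 lower (33.3%, against 12.7%).

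Slc7a8 encodes LAT2, an exchanger of neutral amino acids. Its log2 value was 10.80 in B-Gal positive cells and 8.30 in B-Gal negative cells, a 5.66-fold higher level. Slc7a7 encodes y+LAT1, which exchanges cationic against neutral amino acids and is known from macrophages. It had 8.77 in B-Gal positive cells and 6.48 in B-Gal negative cells (4.89-fold higher). The related light chains of overlapping substrates went the other way. Slc7a5 encodes LAT1, the exchanger of leucine and other large neutral amino acids, and stood at 7.82 in B-Gal positive cells and 8.87 in B-Gal negative cells (2.07-fold lower). Slc7a6 encodes y+LAT2, the other exchanger of cationic against neutral amino acids. It had 7.75 in B-Gal positive cells and 9.69 in B-Gal negative cells (3.85-fold lower). In each of these pairs of carriers, LAT2 and LAT1 or y+LAT1 and y+LAT2, the array with the higher level of the one had the lower level of the other.

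Slc7a11 encodes xCT, which takes up cystine in exchange for glutamate. Its values were 10.17 in B-Gal positive and 9.56 in B-Gal negative cells, a difference of 0.61 on the log2 scale that stayed under 2-fold. Slc7a10, an exchanger of small neutral amino acids, lay at the floor with 5.61 in B-Gal positive and 5.49 in B-Gal negative cells. The light chains Slc7a9, Slc7a12, Slc7a13 and Slc7a15 were not expressed. Slc7a6os, the neighbour of Slc7a6 that is no transporter, differed by 0.19, from values of 8.06 in B-Gal positive and 7.87 in B-Gal negative cells.

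Promoter windows of these genes were searched for the core letters of the element that ATF4, the transcription factor of the amino acid stress response, binds with C/EBP factors. The letters were TGATGNAA on either strand, in RefSeq windows of GRCm38.p6 from 250 bases before to 50 bases after each listed start. Of the 64 genes, 47 had a window, 68 windows in all. Among the 41 expressed genes, 30 had a window. Slc7a5 and Slc38a1 were among those without 1, so they could not be searched. The letters were found in 5 of the 68 (7.35%), against 3.97% of all 32851 windows. The expressed genes that held them were Slc7a7, Slc7a11 and Slc1a4, of which Slc7a7 differed by 2.29, Slc7a11 by 0.61, and Slc1a4 was at least 4.17-fold lower. So the genes with these letters stood on both sides of 0. Their windows are shown to let the matches, in capitals, be seen in place. They lie at chr14:54417895-54418194 (minus strand, 1 of 5 windows listed for Slc7a7), chr3:50443564-50443863 (minus strand, Slc7a11) and chr11:20332664-20332963 (minus strand, Slc1a4), each printed 5′ to 3′ along the gene.
Slc7a7: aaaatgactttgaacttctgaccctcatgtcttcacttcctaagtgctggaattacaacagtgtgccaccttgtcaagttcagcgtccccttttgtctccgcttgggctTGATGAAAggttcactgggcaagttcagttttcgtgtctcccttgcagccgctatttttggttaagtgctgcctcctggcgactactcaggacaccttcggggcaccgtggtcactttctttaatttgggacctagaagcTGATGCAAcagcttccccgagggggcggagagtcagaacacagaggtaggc
Slc7a11: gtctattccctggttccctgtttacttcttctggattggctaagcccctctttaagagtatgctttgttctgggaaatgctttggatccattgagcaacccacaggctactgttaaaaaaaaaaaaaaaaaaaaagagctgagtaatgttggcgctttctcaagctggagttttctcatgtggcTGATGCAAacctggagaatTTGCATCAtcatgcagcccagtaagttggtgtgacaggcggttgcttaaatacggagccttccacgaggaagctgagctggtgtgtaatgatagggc
Slc1a4: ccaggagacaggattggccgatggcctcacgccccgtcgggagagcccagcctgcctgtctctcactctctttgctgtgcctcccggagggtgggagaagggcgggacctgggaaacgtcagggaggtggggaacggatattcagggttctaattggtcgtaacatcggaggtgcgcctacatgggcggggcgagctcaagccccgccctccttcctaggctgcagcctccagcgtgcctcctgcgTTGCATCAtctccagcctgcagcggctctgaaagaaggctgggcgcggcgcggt

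The Slc7a7 window holds the letters at 2 places and the Slc7a11 window at 2 places, once on each strand. The Slc1a4 window holds them at 1 place. A match is a run of letters and not evidence of binding.

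The cationic amino acid transporters, which carry arginine, lysine and ornithine, differed little. Slc7a2, which encodes CAT2, had a log2 value of 7.94 in B-Gal positive cells and 8.06 in B-Gal negative cells. Slc7a1, which encodes the widely expressed CAT1, had 7.17 in B-Gal positive cells and 7.80 in B-Gal negative cells, a 1.55-fold lower level. Slc7a4, a relative of these carriers, lay near the floor with 6.09 in B-Gal positive and 5.80 in B-Gal negative cells, and Slc7a3 and Slc7a14 were not expressed. Of the 5 genes, 3 were expressed and 0 passed 2-fold in either direction, against 22.6% of all expressed genes. Arg1, the arginase of alternatively activated macrophages, had 11.31 in B-Gal positive cells and 8.70 in B-Gal negative cells (6.10-fold higher). Nos2, the inducible nitric oxide synthase, had 5.73 in B-Gal positive cells and 8.42 in B-Gal negative cells (6.45-fold lower). The other nitric oxide synthase genes differed less, Nos1 by 0.36 and Nos3 by -0.52.

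Carriers of glutamate and of small neutral amino acids, which make up the Slc1a family, had 4 of 7 genes expressed. Of these, 2 were lower by 2-fold or more (50%, against 12.7% of all expressed genes). Slc1a3, a sodium-coupled carrier of glutamate and aspartate, had a log2 value of 5.65 in B-Gal positive cells, barely past the floor, and 7.00 in B-Gal negative cells (2.54-fold lower). Slc1a4 encodes ASCT1, an exchanger of alanine, serine and cysteine. It had 5.20 in B-Gal positive cells, under the floor, and 7.65 in B-Gal negative cells, so its level was at least 4.17-fold lower. The exchanger of glutamine, ASCT2, is encoded by Slc1a5. Its values were 8.73 in B-Gal positive cells and 9.62 in B-Gal negative cells, a difference of -0.89 that stayed just under 2-fold. The retinal carrier Slc1a7 lay near the floor at 5.81 in B-Gal positive and 5.75 in B-Gal negative cells, and Slc1a1, Slc1a2 and Slc1a6 were not expressed.

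The Slc38 family of neutral amino acid carriers held the lowest gene of the set beside several higher ones. Of 11 genes, 9 were expressed. By 2-fold or more 4 were higher (44.4%, against 9.92% of all expressed genes) and 2 lower (22.2%, against 12.7%). Slc38a4, an imprinted gene whose product carries neutral amino acids and is known from liver and placenta, had a log2 value of 5.46, under the floor, in B-Gal positive cells and 9.82 in B-Gal negative cells. Its level was therefore at least 18.9-fold lower in B-Gal positive cells. Slc38a1 encodes SNAT1, a sodium-coupled carrier of glutamine. It had 9.41 in B-Gal positive cells and 7.45 in B-Gal negative cells (3.90-fold higher), and its second probe set gave a difference of 1.73, close to the 1.96 of the first. Slc38a2 encodes SNAT2, which cells raise when amino acids are scarce, and was nearly equal at 11.86 in B-Gal positive and 11.92 in B-Gal negative cells. These 3 genes follow each other with no other protein-coding gene between them in the RefSeq table of GRCm38.p6. Of these neighbours, Slc38a1 was higher, Slc38a2 differed by -0.05 and Slc38a4 was lower.

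Slc38a6 was 3.27-fold higher, with 9.48 in B-Gal positive cells and 7.77 in B-Gal negative cells. Slc38a10 was 2.58-fold lower, at 8.57 in B-Gal positive and 9.94 in B-Gal negative cells. Slc38a5 and Slc38a8 lay near the floor on both arrays, and Slc38a3 and Slc38a11 were not expressed.

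Slc38a7, Slc38a9 and Slc36a1 have known roles at the lysosome and were 2-fold or more higher. They were grouped with their values known, and the other members were not sorted by such a role. No list of lysosomal members was counted, so their shared side is no result about lysosomal carriers. Slc38a7, which carries glutamine and asparagine out of lysosomes, had a log2 value of 8.96 in B-Gal positive cells and 7.72 in B-Gal negative cells (2.37-fold higher). Slc38a9 is a lysosomal arginine sensor that acts on mTORC1, the kinase complex that couples growth to amino acids. It stood at 8.54 in B-Gal positive cells and 7.40 in B-Gal negative cells, 2.21-fold higher, and its second probe set gave a difference of 1.08, against 1.15 for the first. Slc36a1 encodes PAT1, a proton-coupled carrier of small amino acids found at lysosomes and the cell surface. Its values were 8.38 in B-Gal positive and 7.28 in B-Gal negative cells (2.14-fold higher).

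Among the other Slc36 genes, Slc36a2, a carrier of glycine, alanine and proline, had 6.76 in B-Gal positive cells and 5.19 in B-Gal negative cells, a value below the floor. It was at least 2.26-fold higher. Slc36a4, a high-affinity carrier of proline and tryptophan, was nearly equal at 9.17 in B-Gal positive and 9.22 in B-Gal negative cells, and Slc36a3 was not expressed. Slc36a3, Slc36a2 and Slc36a1 also follow each other as protein-coding neighbours.

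The windows of Slc36a1 and Slc38a7 are shown because each holds CACGTG, the E-box bound by TFEB, a regulator of lysosomal genes, and by MYC and USF factors among others. They lie at chr11:55204090-55204389 (plus strand, Slc36a1) and chr8:95853442-95853741 (minus strand, Slc38a7) of GRCm38.p6, with matches in capitals.
Slc36a1: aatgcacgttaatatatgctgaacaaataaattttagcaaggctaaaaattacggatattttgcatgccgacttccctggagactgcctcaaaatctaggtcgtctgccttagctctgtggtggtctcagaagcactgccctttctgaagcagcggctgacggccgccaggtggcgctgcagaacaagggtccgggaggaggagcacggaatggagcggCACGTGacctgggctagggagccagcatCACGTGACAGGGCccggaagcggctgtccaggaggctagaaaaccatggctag
Slc38a7: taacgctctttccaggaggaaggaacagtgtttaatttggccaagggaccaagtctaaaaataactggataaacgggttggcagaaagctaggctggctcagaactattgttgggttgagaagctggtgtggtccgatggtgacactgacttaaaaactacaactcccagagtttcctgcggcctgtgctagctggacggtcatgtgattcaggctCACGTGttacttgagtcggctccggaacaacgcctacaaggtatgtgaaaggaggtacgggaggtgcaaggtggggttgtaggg

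The Slc36a1 window has CACGTG at 2 places, and the second overlaps a match to TGACNNNGC, the core of the antioxidant response element that NRF2 binds. Over all windows of the 7 families, CACGTG was in 9 of 68 (13.2%), against 7.15% of all windows. TGACNNNGC was in 11 of 68 (16.2%), against 12.4% of all. It was held by the expressed genes Slc36a1, Slc38a2, Slc43a1, Slc6a9, Slc7a1 and Slc7a6. Among them Slc36a1 was higher by 2-fold or more, and Slc43a1, Slc6a9 and Slc7a6 were lower. Slc38a2 and Slc7a1 differed less. Expressed genes with CACGTG were Slc36a1, Slc38a7, Slc43a1, Slc1a7, Slc38a5 and Slc6a3. Slc43a1 among them was lower, and Slc1a7, Slc38a5 and Slc6a3 lay near the floor. Slc38a9 was not among the genes found with it. The letters say nothing of which factor was bound in these cells.

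The Slc43 family has 3 genes, of which Slc43a1 and Slc43a2 encode carriers that let large neutral amino acids pass down their gradient. All 3 differed at least 2-fold, 1 higher and 2 lower, against 22.6% of all expressed genes in either direction. Slc43a2 encodes LAT4, a carrier of leucine, methionine and phenylalanine. It had a log2 value of 9.97 in B-Gal positive cells and 6.57 in B-Gal negative cells. That 10.5-fold higher level was the largest on the higher side among the 41 genes, and 72nd from the top among all expressed genes by their deposited values. Slc43a1 encodes LAT3, a carrier of the same kind of amino acids. It had 5.59 in B-Gal positive cells, barely above the floor, and 8.16 in B-Gal negative cells (5.94-fold lower). Slc43a3, which is known to carry purine nucleobases and not amino acids, had 7.71 in B-Gal positive cells and 10.65 in B-Gal negative cells (7.66-fold lower). Slc43a1 and Slc43a3 lie 1 protein-coding gene apart and both were lower, while LAT3 and LAT4 stood on opposite sides.

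**Figure D2:**
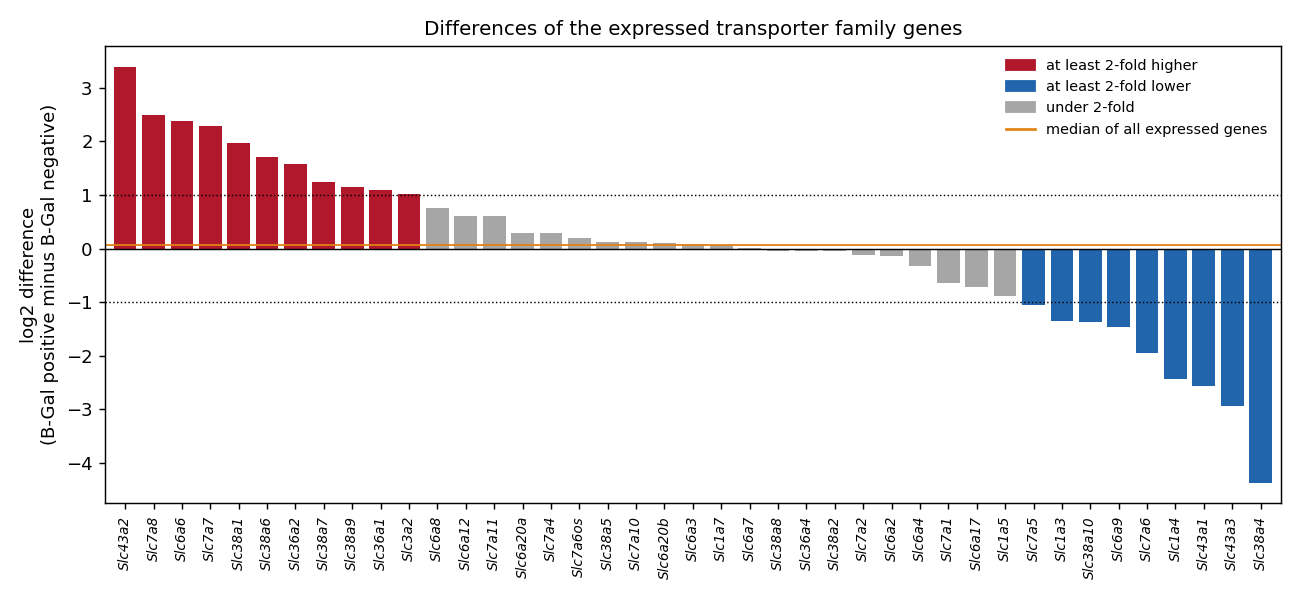
Log2 difference (vertical axis, B-Gal positive minus B-Gal negative, 1 array each) of each expressed gene of the 7 families, sorted from highest to lowest. Dotted lines mark 2-fold; 11 genes lie above the upper and 9 below the lower line, and the orange line is the median of all expressed genes, 0.06. The bars of Slc38a4, Slc1a4 and Slc36a2 use deposited values of which 1 lies under the floor, so their lengths are not measured folds.

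In the Slc6a family, 11 of 21 genes were expressed and 2 differed at least 2-fold (18.2%, against 22.6% of all expressed genes). The taurine transporter gene Slc6a6 had a log2 value of 11.72 in B-Gal positive cells and 9.34 in B-Gal negative cells (5.20-fold higher). The glycine transporter gene Slc6a9, which encodes GlyT1, had 6.20 in B-Gal positive cells and 7.67 in B-Gal negative cells (2.77-fold lower). Taurine and glycine carriers of this family thus stood on opposite sides.

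Smaller differences were seen for 3 more. The creatine transporter gene Slc6a8 had 9.43 in B-Gal positive and 8.68 in B-Gal negative cells (1.68-fold higher). Slc6a12, the carrier of betaine and GABA, had 6.46 in B-Gal positive and 5.84 in B-Gal negative cells (1.53-fold higher). Slc6a17, a carrier of neutral amino acids in synaptic vesicles, had 6.04 in B-Gal positive and 6.75 in B-Gal negative cells (1.63-fold lower). The monoamine carriers Slc6a2 (noradrenaline), Slc6a3 (dopamine) and Slc6a4 (serotonin), the neuronal proline carrier Slc6a7 and the imino acid carriers Slc6a20a and Slc6a20b all lay near the floor on both arrays.

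Near the floor the order of values carries little. Neither array passed 6.27, the 99th percentile of the receptor genes, for 11 of the 41 expressed genes: Slc1a7, Slc7a4, Slc7a10, Slc38a5, Slc38a8 and the 6 Slc6a genes named above. Their differences ran from -0.33 to 0.29, and 6 of them changed sign under some scaling of the arrays. Genes that were not expressed had values from 2.23 to 5.57. Beside those already named, they were Slc6a5, Slc6a11, Slc6a13, Slc6a14, Slc6a15, Slc6a16, Slc6a18, Slc6a19, Slc6a21 and Slc6a19os. A value under the floor does not show that a gene was silent.

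Of 24 amino acid transporter genes of other families, 21 were expressed. Among them, 7 (33.3%, against 9.92% of all expressed genes) passed 2-fold on the higher side and 1 (4.76%, against 12.7%) on the lower side. The other 13 differed less than 2-fold, some of them near the floor, and the median difference was 0.38. Slc16a10 encodes TAT1, a facilitated carrier of aromatic amino acids, and had a log2 value of 9.23 in B-Gal positive cells and 7.00 in B-Gal negative cells (4.69-fold higher). Mfsd12, which brings cysteine into lysosomes, was 4.67-fold higher, with 9.67 in B-Gal positive and 7.45 in B-Gal negative cells. Slc15a3, a lysosomal carrier of histidine and small peptides, was 4.29-fold higher, with 11.35 in B-Gal positive and 9.25 in B-Gal negative cells. Slc25a13, a mitochondrial exchanger of aspartate and glutamate, was 3.80-fold higher, while its relative Slc25a12 differed by 0.03.

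Among genes of the amino acid stress response, many of them ATF4 targets, 27 of 30 were measured and 26 were expressed. Of these 26, 11 (42.3%, against 12.7% of all expressed genes) were lower by 2-fold or more and 1 (3.85%, against 9.92%) was higher. The other 14 differed less, and the median difference was -0.53. Among the 11, Cth was only at least 1.26-fold lower against the floor, and an offset of 32 left 8 lower. Several genes of the list differed little or were higher: Ddit3 by -0.06, Trib3 by 0.12, Chac1 by -0.14, Sesn2 by -0.17 and Atf3 by 0.72. By deposited values 22 of the 26 lay on the lower side and 4 on the higher side. Of all 13784 expressed genes, 6275 lay on the lower and 7427 on the higher side. Asns, which makes asparagine, had 6.78 in B-Gal positive cells and 9.50 in B-Gal negative cells (6.60-fold lower). Aldh18a1, an enzyme of proline synthesis, had 7.57 in B-Gal positive cells and 10.34 in B-Gal negative cells (6.83-fold lower). Psat1, of serine synthesis, was 3.32-fold lower and the lipoprotein receptor gene Vldlr 8.63-fold lower. Atf4 itself had 9.47 in B-Gal positive and 9.80 in B-Gal negative cells, a difference of -0.34. The list of serine, glycine and proline synthesis shares several genes with the stress response list. Of its 14 expressed members, 5 (35.7%, against 12.7% of all expressed genes) were lower by 2-fold or more and 1 (7.14%, against 9.92%) was higher.

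For glutamine and glutamate metabolism, 3 of 14 expressed genes (21.4%, against 12.7% of all expressed genes) were lower by 2-fold or more. In the same list 1 (7.14%, against 9.92%), at the threshold, was higher. Gfpt2, an enzyme that starts the hexosamine pathway with glutamine, had 7.46 in B-Gal positive cells and 11.38 in B-Gal negative cells (15.2-fold lower). Cad, of pyrimidine synthesis, was 3.31-fold lower. Bcat1, which starts the breakdown of branched-chain amino acids in the cytosol, had 6.09 in B-Gal positive cells and 9.90 in B-Gal negative cells (14.1-fold lower). It was the 1 gene of 14 expressed in its list that passed 2-fold (7.14%, against 22.6% of all expressed genes in either direction). In arginine metabolism 3 of 19 expressed genes (15.8%, against 9.92% of all) were higher by 2-fold or more and 6 (31.6%, against 12.7%) were lower. Gatm, the first enzyme of creatine synthesis, was 10.5-fold higher, and Ddah1, which breaks down methylated arginine, was 13.9-fold lower.

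Genes of glutathione and cystine use were higher by 2-fold or more in 5 of 21 expressed members (23.8%, against 9.92% of all expressed genes). Lower by deposited values were 2 (9.52%, against 12.7%), and with values raised to the floor 1. The gene lost was Cth, with 4.88 in B-Gal positive cells, under the floor, and 5.92 in B-Gal negative cells (at least 1.26-fold lower). Gclm, a subunit of the enzyme that limits glutathione synthesis, had 9.48 in B-Gal positive cells and 7.63 in B-Gal negative cells (3.60-fold higher). Hmox1, the haem oxygenase, was 4.65-fold higher. The dipeptidase genes stood apart from each other, Dpep2 at 11.3-fold higher and Dpep1 at 6.91-fold lower. For amino acid sensing by mTORC1, 4 of 31 expressed genes were higher by 2-fold or more (12.9%, against 9.92% of all expressed genes). In the same list 1 was lower (3.23%, against 12.7%), and the median was 0.32. In either direction 16.1% passed 2-fold, a smaller share than the 22.6% of all expressed genes. Fnip2 and Flcn, partners in the folliculin complex that acts on Rag GTPases at the lysosome, were 5.45-fold and 2.76-fold higher. Of the sestrins, which sense amino acids upstream of these GTPases, Sesn1 was 4.04-fold higher, Sesn3 was 3.80-fold lower and Sesn2 differed by -0.17.

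**Figure D3:**
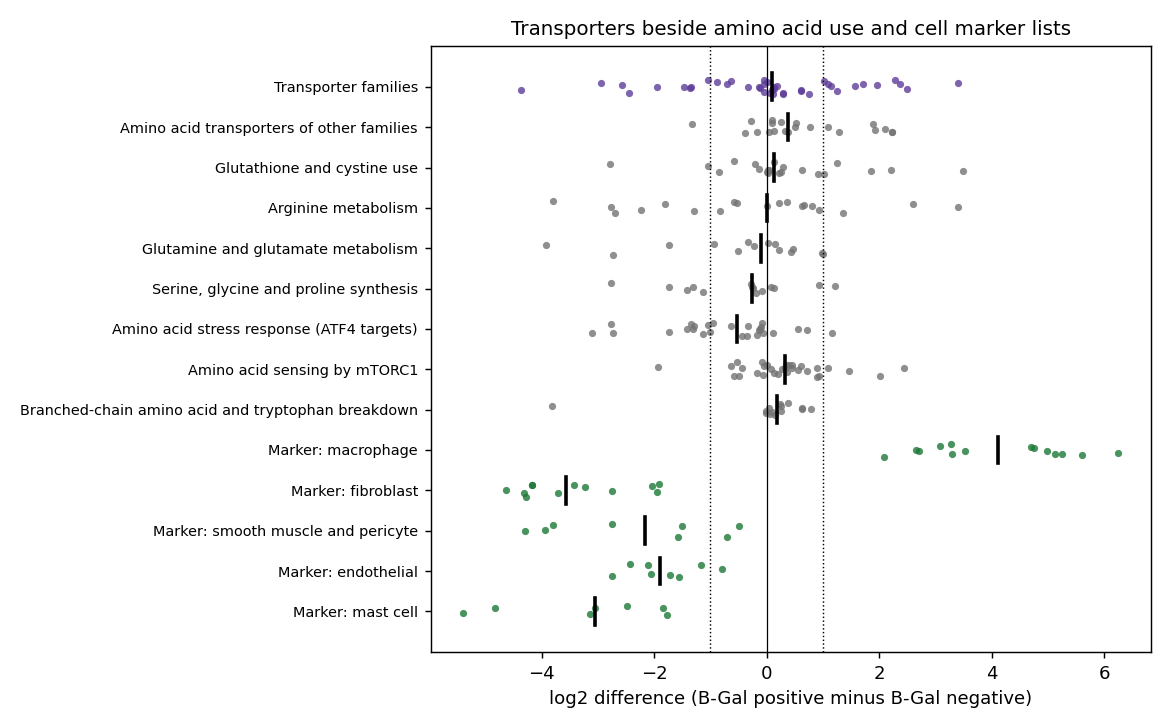
Log2 differences (horizontal axis, B-Gal positive minus B-Gal negative, 1 array each) of expressed genes in the transporter families, in lists of amino acid use and in marker lists. Each point is a gene, black bars are medians and dotted lines mark 2-fold; the transporters spread on both sides of 0 (median 0.09), while macrophage markers have a median of 4.11 and fibroblast markers of -3.57.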

How the data were processed

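One Affymetrix array per group was read from the table of log2 values that the authors deposited. The submitters' processing notes name Partek and no version. How values were summarized and normalized, and their log base, is not stated in those sources. The values ran from 1.16 to 14.8 and were read as log2, on which the folds depend. Of 28853 probe sets, 21789 named a single gene in the platform annotation, and the probe set with the highest mean stood for its gene. Symbols were checked by gene ID against RefSeq (GRCm38.p6), and 0 changed. Slc36a1os and Slc36a3os were not analysed here.

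No p-value was computed. Folds with 1 array at or under the floor were taken against the floor and are given as at least that size. All 64 genes could be named, with both values where they differed at least 1.5-fold. Of each other list up to 4 genes with the largest differences were named, besides Arg1, Nos2, Atf4 and some genes given to show limits. The members, roles, 8 lists of amino acid use and 10 marker lists were chosen with earlier results of these data known. Of 269 list entries, 18 lacked a probe set. Alternatives were other scalings, floors, thresholds, an offset and member choices. The steps were tested on simulated data. Python 3.11.15, pandas 2.3.3 and statsmodels 0.14.6 were used.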

Additional observations from a re-analysis of the deposited data

How the results depend on the processing

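No paired analysis was possible because each group had 1 array, and for the same reason no array could be left out. With a 4-fold in place of a 2-fold threshold, 4 genes of the transporter families were higher and 4 lower. Together these were 19.5% of 41, against 8.73% of all expressed genes. With a 1.5-fold threshold 14 were higher and 12 lower (63.4% together, against 38.8% of all expressed genes). The same 11 higher and 9 lower genes passed 2-fold under centring of array medians, loess, quantile normalization, the mean over probe sets, no filter on low values, a floor raised to the 99th percentile, values raised to the floor, and without the genes that are no transporters. An offset of 32 on the linear scale left 10 higher and 7 lower, without Slc36a1, Slc7a5 and Slc1a3. That was 41.5% of 41, against 18.2% of all expressed genes. Without the Slc6a family, 10 were higher and 8 lower (60% of 30 together, against 22.6% of all expressed genes). The share of these genes past 2-fold was 66.7% of 30 with the higher floor, against 26.5% of all genes, and 31.2% of 64 with no filter, against 17.2%. The median difference ran from -0.06 (loess) to 0.12 (no filter). Loess moved the median of all expressed genes to -0.04, against 0.06 as deposited. Single genes' differences moved by less than the receptor genes' SD in 200 of 205 values, and the other 5 were smaller under the offset. For the other lists 27 of 693 values moved, 18 of them with the offset or the higher floor. With the latter the median of the Slc38 carriers was 1.15, against 0.12, since genes near the floor left it.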

Other observations

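The genes given here were chosen after their values were seen. In the list of other families, 3 further lysosomal carriers were higher by 2-fold or more, and Slc17a5, the lysosomal carrier sialin, was under 2-fold with a difference of 0.77. Slc15a4, a carrier of histidine and peptides, had a log2 value of 9.74 in B-Gal positive cells and 7.84 in B-Gal negative cells. Slc66a1, which lets cationic amino acids out of lysosomes, had 7.98 in B-Gal positive cells and 6.69 in B-Gal negative cells. Ctns, the cystine carrier whose loss causes cystinosis, had 9.18 in B-Gal positive cells and 8.08 in B-Gal negative cells. The 1 gene of that list at least 2-fold lower was Sfxn1, a mitochondrial serine carrier, with 8.29 in B-Gal positive cells and 9.62 in B-Gal negative cells. Arg2, the mitochondrial arginase, had 8.77 in B-Gal positive cells and 7.41 in B-Gal negative cells, and so stood on the same side as Arg1. The 1 gene of the stress response list that was at least 2-fold higher was Cebpb, with 10.56 in B-Gal positive cells and 9.40 in B-Gal negative cells. Levels of macrophage markers were higher on the same array, and their part in these values was not tested.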
